A study of Mus musculus with 96 samples.

Results

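Epididymal white adipose tissue (eWAT), the fat pad attached to the epididymis of male mice, was compared between mice carrying a SIRT1 transgene (SIRT1Tg) and wild type (WT) mice. The comparison takes 12 arrays of the 96 in the series, the 6 SIRT1Tg and the 6 WT arrays of this tissue, chosen by their labels. The SIRT1Tg mice are labelled SIRT1Tg/Tg and the WT mice C57/Bl6. All were males on a low fat diet eaten ad libitum, killed at 8 in the morning after a fast of 12 h. What drives the transgene, in which cells, and the strain that carries it are not given in the sources used here, nor are ages. Each array holds the RNA of 1 animal number, and 3 arrays per group carry lower and 3 higher numbers, called series A and B here. The series also covers brown adipose tissue (BAT), liver and muscle, and mice under caloric restriction for 3 months (CR) or with a running wheel for 10 weeks (EX). The 24 eWAT arrays, CR and EX included, shared 1 estimate of the spread.

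SIRT1 is a deacetylase that uses NAD and acts on transcription factors and cofactors, among them PPARγ, PGC-1α and the p65 subunit of NF-κB. In white fat it is known for effects on adipocyte differentiation, fat release during fasting and inflammation. Adipose tissue also holds macrophages, T, B and NK cells, endothelial cells and a mesothelial cover, and in RNA of whole tissue fewer cells of a type and less RNA per cell cannot be told apart.

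Mean signal per array ran from 302 to 365 and detected probes from 13480 to 14940. Of the fat markers, some read high and some low. The level (log2 intensity after background correction and quantile normalisation) of Adipoq, which encodes adiponectin, was 13.25 to 13.44 in WT and 13.27 to 13.53 in SIRT1Tg, and that of Lep, which encodes leptin, 11.89 to 13.16 and 12.26 to 13.46. Cidec, a lipid droplet protein, read 12.99 to 13.63 and Plin1, perilipin, 7.55 to 9.30. Retn, which encodes resistin, read 5.54 to 6.77 and Slc2a4, the insulin-responsive glucose transporter, 5.96 to 7.57. Fabp4, a fatty acid carrier of adipocytes, was detected on 6 of the 12 arrays, at 5.26 or lower. Some pads carried RNA of the neighbouring epididymis. Adam7, a sperm maturation gene of the epididymis, read 12.55 on WAT_1960_WT, 8.96 on WAT_1955_SiRT1, 7.97 on WAT_1961_WT and 7.04 on WAT_1953_SiRT1, against 4.29 to 4.60 on the other 8 arrays. These 4 arrays, 2 per group and all of series A, are the ones left out below. Leaving them out thus also shifts weight to series B. The effects of epididymis RNA and of series on that fit were not tested apart. A further array, WAT_2226_WT, held Spink8 at 12.76 and Defb42 at 10.92, both epididymis genes, without Adam7, and WAT_1959_WT held the sperm gene Prm1 at 12.34. Leaving out these as well left 4 SIRT1Tg and 2 WT arrays, the WT arrays all of series B. Of the WT arrays left, WAT_2228_WT read Spink8 at 7.34 and Defb42 at 5.37, against 7.52 and 6.05 on WAT_1961_WT. WAT_2232_WT read 4.16 for both. The 4 SIRT1Tg arrays without Adam7 read 4.18 to 5.49 for Spink8 and 4.12 to 4.15 for Defb42, and WAT_1959_WT read Spink8 at 6.06. The reduced sets were thus not free of epididymis RNA. No slide held both groups, 3 slides carrying the SIRT1Tg and 4 the WT arrays, so genotype and slide cannot be told apart within eWAT.

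With all arrays, 7 of 11791 features passed a Benjamini-Hochberg adjusted p of 0.05 (limma), which is 0.0594%. Sirt1 and Trib2 rose in SIRT1Tg eWAT (0.017%). Cd8b1, Lat2, Sirpb1a, Cx3cr1 and Cd180, all genes of leukocytes, fell (0.0424%). Without the 4 arrays carrying epididymis RNA 53 features passed (0.449%), 48 of them lower in SIRT1Tg (0.407%), among them Cd3d, Cd3e, Cd3g and Zap70. The 7 genes were all among the 53, and each of the 53 had the same sign with all arrays. The 2 fits share most arrays, which favours such agreement. Some differences nearly vanished with all arrays: Acer3 was at -0.66 without the 4 and -0.01 with them, and Cotl1 at -1.04 and -0.18. Median scaling called 32 features, 1 higher and 31 lower, and the deposited matrix values 4, 2 higher and 2 lower. Of the 7, Sirt1, Cd180 and Sirpb1a were called with slide as a random block and Sirt1 and Lat2 with slide fixed over the 4 tissues, and without WAT_2222_SiRT1 or without WAT_2228_WT Sirt1 alone was. The p-values measure the spread between the animals of all 24 eWAT arrays, CR and EX included, on their slides. In a fit of the 12 SIRT1Tg and WT arrays alone, Sirt1 was the only feature called.

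Sirt1 levels in WT ran from 6.68 to 7.54 with a median of 7.07, and in SIRT1Tg from 9.36 to 10.14 with a median of 9.55. Every SIRT1Tg array lay above every WT array, as 36 features did (0.305%). The fitted log2 difference was 2.58 ± 0.11 (SE, n = 6 per group), a 5.97-fold higher signal (limma adjusted p = 7.78e-13), and it was 2.59 within series A and 2.56 within series B. Only 1 probe on the array reads Sirt1. None of the other 5 sirtuins measured passed. Sirt3, the main mitochondrial deacetylase, read 8.29 ± 0.27 (SD) in WT and 8.53 ± 0.09 in SIRT1Tg (limma adjusted p = 0.621), and Sirt7, a nucleolar sirtuin, 9.79 ± 0.11 and 9.62 ± 0.19 (limma adjusted p = 0.66). Sirt2, Sirt5 and Sirt6 had log2 differences of 0.05, -0.01 and 0.03.

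Of 8 measured genes that neighbour Sirt1 on chromosome 10, none passed with all arrays. Dnajc12, a DnaJ co-chaperone of the aromatic amino acid hydroxylases and chosen after its values were seen, came nearest. It read 4.91 to 5.52 in WT with a median of 5.29, and 5.99 to 7.53 in SIRT1Tg with a median of 6.06. The groups did not overlap, as for 36 features (0.305%) higher on every SIRT1Tg array. WAT_1955_SiRT1 stood highest at 7.53, and the log2 difference was 1.05 ± 0.21 (limma adjusted p = 0.0586). Without the 4 arrays, which include WAT_1955_SiRT1, it was 0.83 (limma adjusted p = 0.0679). The 2 neighbours with the highest levels, Slc25a16 and Ccar1, differed by -0.02 and -0.20.

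Trib2, a pseudokinase that promotes the breakdown of C/EBPα, was the other gene that rose. WT arrays ran from 6.64 to 7.68 with a median of 7.06 and SIRT1Tg arrays from 7.64 to 8.21 with a median of 7.95. Only WAT_1959_WT and WAT_1961_WT reached the lowest SIRT1Tg value, and the log2 difference was 0.77 ± 0.15 (1.71-fold, limma adjusted p = 0.0446). It was 0.80 without the 4 arrays.

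**Figure D1:**
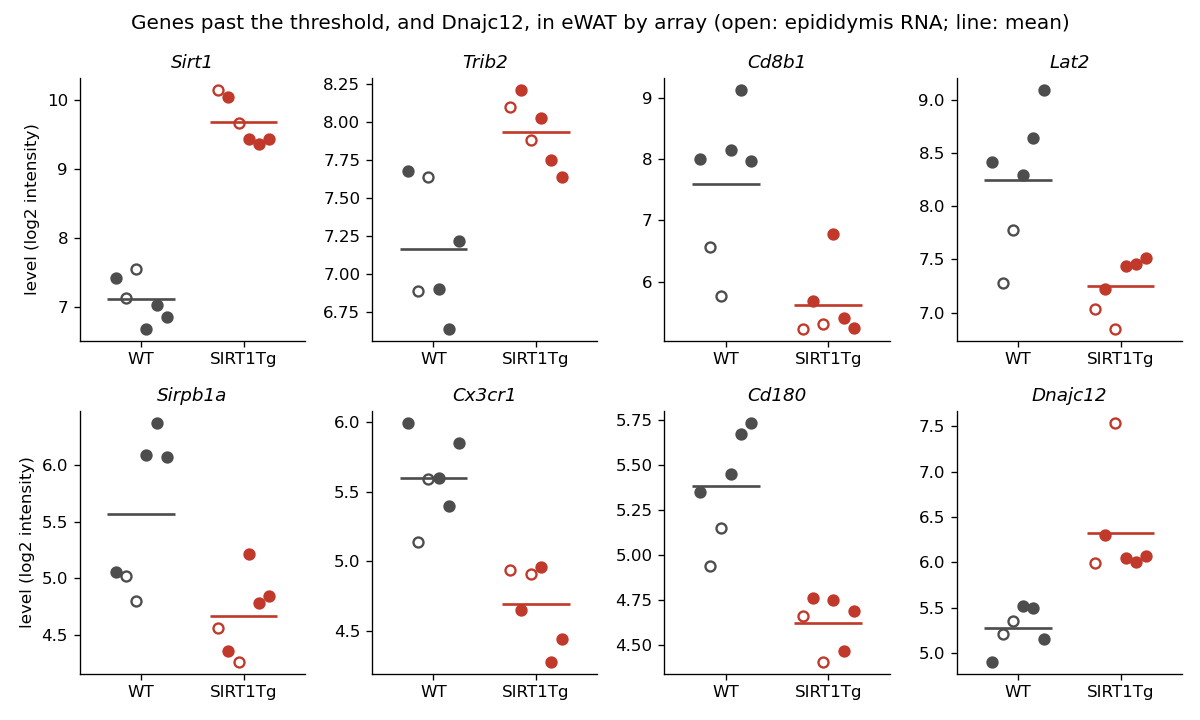
Level (log2 intensity, y axis) of the 7 genes past the threshold and of Dnajc12 on each of the 6 WT (grey) and 6 SIRT1Tg (red) eWAT arrays; open points are the 4 arrays with epididymis RNA and lines the group means. Sirt1, Dnajc12, Cx3cr1 and Cd180 do not overlap between groups, and for Cd8b1 the open WT points, at 6.57 and 5.76, lie nearest the SIRT1Tg arrays.

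Cd8b1, the β chain of the CD8 coreceptor of cytotoxic T cells, had the largest fall. It read 5.76 to 9.13 in WT with a median of 7.99, and 5.23 to 6.78 in SIRT1Tg with a median of 5.36. The 4 WT arrays without Adam7 lay at 7.98 or above, over every SIRT1Tg array, while WAT_1960_WT at 6.57 and WAT_1961_WT at 5.76 lay among them. The log2 difference was -1.99 ± 0.36 (3.97-fold lower, limma adjusted p = 0.0294), and -2.54 ± 0.36 without the 4 arrays (limma adjusted p = 0.00307). It was -1.36 within series A and -2.61 within series B. A further probe of Cd8b1 gave a log2 difference of -0.69.

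Lat2, an adaptor of receptor signalling in B, NK, mast and myeloid cells, read 7.28 to 9.09 in WT with a median of 8.36 and 6.85 to 7.51 in SIRT1Tg with a median of 7.33. Only WAT_1960_WT, at 7.28, lay within the SIRT1Tg range. The log2 difference was -1.0 ± 0.18 (limma adjusted p = 0.0294), and -1.20 without the 4 arrays. A further Lat2 probe gave -0.71. Lat2 was also called in a fit over the 4 tissues with slide as a fixed term (-0.98, limma adjusted p = 0.0278).

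Cx3cr1, the fractalkine receptor of monocytes, resident macrophages and some T and NK cells, read 5.14 to 5.99 in WT with a median of 5.59, and 4.28 to 4.96 in SIRT1Tg with a median of 4.78. Cd180, a Toll-like receptor relative of B cells, macrophages and dendritic cells, read 4.94 to 5.73 in WT with a median of 5.40 and 4.41 to 4.76 in SIRT1Tg with a median of 4.67. For both, every SIRT1Tg array lay below every WT array, as for 36 features (0.305%). The log2 differences were -0.90 ± 0.16 for Cx3cr1 (limma adjusted p = 0.0294) and -0.76 ± 0.12 for Cd180 (limma adjusted p = 0.0115). Sirpb1a, a paired receptor of myeloid cells, read 4.80 to 6.37 in WT with a median of 5.56 and 4.26 to 5.21 in SIRT1Tg with a median of 4.67. Its groups overlapped at WAT_1959_WT, WAT_1960_WT and WAT_1961_WT, and the log2 difference was -0.90 ± 0.14 (limma adjusted p = 0.0115). Near-identical relatives exist, so which member of the family this probe measured is uncertain. Each of the 3 genes was detected on 4 of 6 SIRT1Tg arrays, so their signals there were close to background.

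Of the lymphocyte genes, Cd3d, Cd3e, Cd3g, Cd6, Zap70, Nkg7 and Ccl5 missed the threshold with all arrays and passed it without the 4, where Cd8b1 passed too. The genes in this and the next 2 paragraphs were chosen after their values were seen, apart from Cd8b1. Cd3d, Cd3e and Cd3g encode the chains of CD3, which carries the signal of the T cell receptor into the cell. Cd3d read 5.73 to 8.32 in WT with a median of 7.66, and 5.37 to 6.38 in SIRT1Tg with a median of 5.83. The 4 WT arrays without Adam7 lay between 7.39 and 8.32, above all SIRT1Tg arrays, and WAT_1960_WT and WAT_1961_WT, at 5.92 and 5.73, inside the SIRT1Tg range. The log2 difference of Cd3d was -1.38 ± 0.32 with all arrays (limma adjusted p = 0.122) and -1.97 ± 0.28 without the 4 (limma adjusted p = 0.00307).

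Cd3g read 5.20 to 7.61 in WT and 4.84 to 5.94 in SIRT1Tg, with log2 differences of -1.25 (limma adjusted p = 0.0643) and, without the 4 arrays, -1.68 (limma adjusted p = 0.00361). Cd3e differed by -0.99 and -1.42 in turn (limma adjusted p = 0.128 and 0.00601). For all 3 CD3 genes WAT_1961_WT was the lowest WT array, and the 4 WT arrays without Adam7 lay above every SIRT1Tg array. Cd6, a T cell surface receptor, differed by -1.25 with all arrays (limma adjusted p = 0.0708) and fell by 1.62 without the 4. For Zap70, the kinase recruited to CD3, the values were -0.64 (limma adjusted p = 0.342) and -1.02, and for Bcl11b, a transcription factor of T cell identity, -0.78 (limma adjusted p = 0.114) and -1.08. In 4 against 4 arrays (3.49% of features were higher on every SIRT1Tg array), each of these genes was lower on every SIRT1Tg array than on any WT array, as were 542 features (4.6%).

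The promoters of the CD3 genes are shown because these neighbouring genes all passed without the 4 arrays. Genes on other chromosomes, such as Cd8b1 and Cd6, fell there too, and shared regulation of the CD3 genes was not tested. Cd3d and Cd3g lie head to head on chromosome 9, with 854 bases between the windows. The windows, from RefSeq (GRCm38.p6), hold 250 bases before and 50 after the start of each gene, 5′ to 3′ on the gene's strand, at chr9:44981536-44981835 (+) for Cd3d, chr9:44980382-44980681 (-) for Cd3g and chr9:45009562-45009861 (-) for Cd3e. Capitals mark AGGAAG, a core bound by ETS factors, on either strand (CTTCCT). Cd3d and Cd3e held 2 matches each and Cd3g 0. The RUNX core TGTGGT, on either strand, had 0 matches in the 3 windows, so no matches of the 2 motifs overlapped there. Of 27025 promoters of the same length 35.1% held the ETS core and 16.9% the RUNX core.
Cd3d: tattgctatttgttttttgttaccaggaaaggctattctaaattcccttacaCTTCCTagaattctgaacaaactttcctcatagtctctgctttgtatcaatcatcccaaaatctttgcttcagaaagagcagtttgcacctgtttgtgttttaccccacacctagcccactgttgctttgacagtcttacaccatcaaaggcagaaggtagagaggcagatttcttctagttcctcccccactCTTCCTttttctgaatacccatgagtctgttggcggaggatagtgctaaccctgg
Cd3g: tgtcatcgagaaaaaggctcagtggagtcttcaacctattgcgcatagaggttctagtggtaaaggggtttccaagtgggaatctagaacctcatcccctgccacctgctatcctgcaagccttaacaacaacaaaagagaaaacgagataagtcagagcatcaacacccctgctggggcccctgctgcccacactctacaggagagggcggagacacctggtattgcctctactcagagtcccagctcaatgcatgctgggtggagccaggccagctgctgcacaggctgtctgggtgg
Cd3e: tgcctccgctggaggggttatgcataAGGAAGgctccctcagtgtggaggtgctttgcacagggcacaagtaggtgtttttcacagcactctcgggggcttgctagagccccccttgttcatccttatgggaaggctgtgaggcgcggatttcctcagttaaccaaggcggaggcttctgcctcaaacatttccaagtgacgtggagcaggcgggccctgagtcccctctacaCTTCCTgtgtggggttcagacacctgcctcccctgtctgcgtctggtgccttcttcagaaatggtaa

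Several genes of cytotoxic cells and chemokines passed without the 4 arrays and not with all. Nkg7, a protein of cytotoxic granules, differed by -1.39 with all arrays (limma adjusted p = 0.148) and fell by 1.88 on the log2 scale without the 4. Ctsw, a protease of cytotoxic lymphocytes, differed by -0.77 (limma adjusted p = 0.226) and fell by 1.10 in turn. Ccl5, a chemokine made by T and NK cells, read 8.83 to 10.37 on the 4 WT arrays without Adam7, 7.17 and 7.62 on WAT_1961_WT and WAT_1960_WT, and 6.98 to 8.31 in SIRT1Tg. It fell by 2.07 without the 4 arrays (limma adjusted p = 0.0148) and differed by -1.36 with them (limma adjusted p = 0.226). Ccl4 differed by -1.21 with all arrays (limma adjusted p = 0.142) and fell by 1.67 without the 4, and Cxcl10, induced by interferon, by -0.82 (limma adjusted p = 0.0518) and 0.96. Il4i1, a secreted amino acid oxidase of myeloid and B cells, read 5.78 to 8.13 in WT and 4.96 to 5.76 in SIRT1Tg (-1.43, limma adjusted p = 0.0586 with all arrays). Its groups did not overlap, as for 36 features (0.305%) lower on every SIRT1Tg array. Ccr6, a receptor of B and T cells, read 4.44 to 7.26 in WT with a median of 5.47, highest on WAT_1959_WT, and 4.25 to 4.58 in SIRT1Tg, where 1 of 6 arrays detected it (-1.23, limma adjusted p = 0.245 with all arrays). Btla and Havcr2, inhibitory receptors, and Cd69 and Dusp2, induced on activation, were also among the 48 lower features, at -1.29, -0.80, -1.06 and -1.39. With all arrays they were at -0.88, -0.58, -0.71 and -0.85 and did not pass (limma adjusted p = 0.257, 0.0586, 0.308 and 0.194). Without background correction these were -0.35, -0.16, -0.23 and -0.26. Of the 6 SIRT1Tg arrays, 1 detected Havcr2, 4 Dusp2 and 3 Cxcl10, so these signals were close to background. Further probes gave smaller differences with all arrays, -0.23 for Havcr2, -0.35 for Dusp2 and -0.31 for Ccr6.

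**Figure D2:**
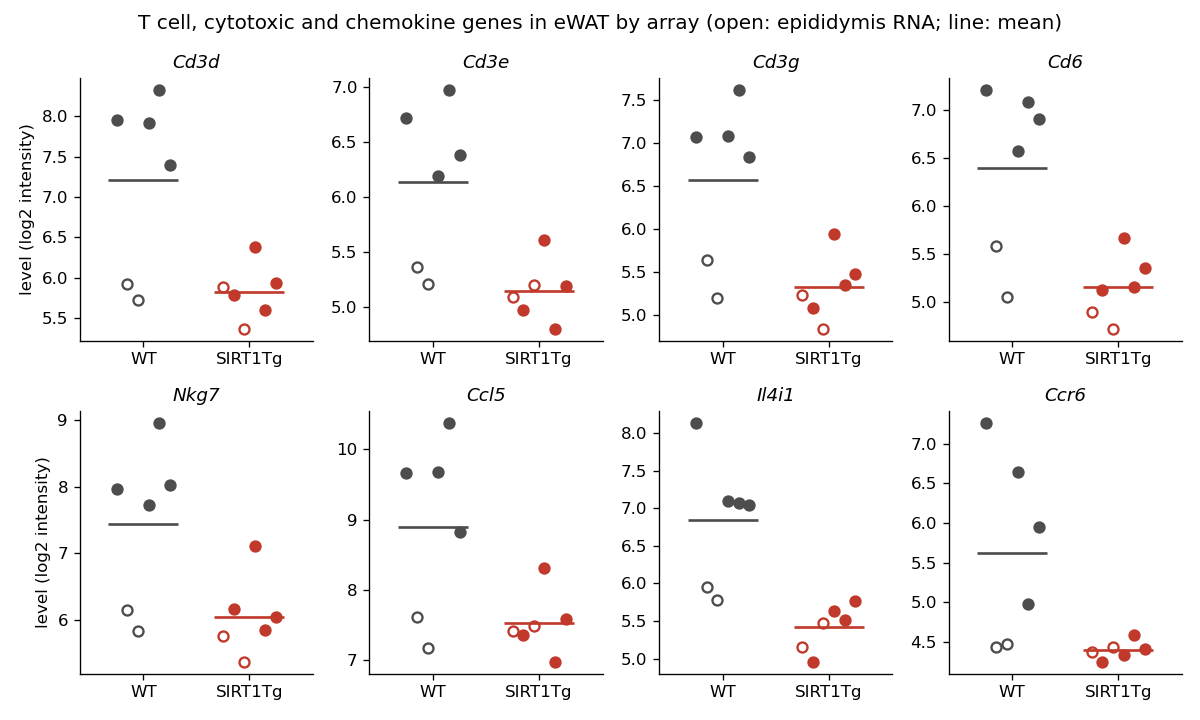
Level (log2 intensity, y axis) of 8 T cell, cytotoxic and chemokine genes on each WT (grey) and SIRT1Tg (red) eWAT array; open points are the 4 arrays with epididymis RNA and lines the group means. In every panel the filled WT points lie above the SIRT1Tg points, and the open WT points lie near or within them.

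Of 31 lymphocyte genes measured, 1 fell with all arrays (0.0424% of all features) and 8 without the 4 arrays (0.407%), and their median log2 differences were -0.78 and -1.02, against -0.01 over all features in both fits. Leaving out WAT_1959_WT and WAT_2226_WT besides the 4, 2 lymphocyte genes fell (0.212% of all features). Their list's median was -0.60 there, against -0.02 over all features. With all arrays the lymphocyte median was -0.28 without background correction and -0.22 in the deposited matrix values. The genes include both T and NK genes and B cell genes: Cd79b, part of the B cell receptor, read 6.22 to 10.08 in WT and 5.18 to 7.27 in SIRT1Tg, highest on WAT_1959_WT. Cd79b overlapped between groups and did not pass with all arrays (-1.54, limma adjusted p = 0.314). It did not pass without the 4 either (-1.78, limma adjusted p = 0.203). Without WAT_1959_WT and WAT_2226_WT too, Cd79b was at -0.60 (limma adjusted p = 0.967). Cd4 was detected on 1 and Cd8a on 0 of the 12 arrays, so both were outside the fit. The mean level of the list was 6.30 to 6.86 on the 4 WT arrays without Adam7. On the other 20 eWAT arrays it was 5.32 to 5.94, the CR arrays holding 5.40 to 5.88 and the EX arrays 5.32 to 5.94. CR and EX share these WT arrays as controls, and 4 CR and EX arrays, with epididymis list levels of 6.77 to 9.33, stayed in every fit. For all 48 lower features the CR and the EX means also lay below the WT mean, and they lay above the SIRT1Tg mean for 37 and 38. The 48 were picked because WT arrays read above SIRT1Tg arrays, which favours such positions, so no conclusion is drawn. The CR arrays are also all of series B and the EX arrays all of series A.

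Of 42 macrophage genes measured, Cx3cr1 fell in both fits (0.0424% of all features fell with all arrays and 0.407% without the 4). A negative difference was found for 32 of the 42, with a median of -0.31 (-0.39 without the 4 arrays), and for 6181 of 11791 features, with a median of -0.01. Trem2, a lipid receptor of macrophages in fat, read 7.34 ± 0.86 (SD) in WT and 6.26 ± 0.64 in SIRT1Tg, with overlap (limma adjusted p = 0.137). It did not pass without the 4 arrays (limma adjusted p = 0.256). Leaving out WAT_1959_WT and WAT_2226_WT too, 2 macrophage genes fell (0.212% of all features). Trem2 was called there (-1.69, limma adjusted p = 0.0299), as was Gpnmb, a macrophage glycoprotein (-2.04, limma adjusted p = 0.0359), and Cx3cr1 was not. Adgre1, a macrophage surface receptor, spanned 7.34 to 9.09 in WT and 7.55 to 9.41 in SIRT1Tg. Of 23 antigen presentation genes 20 were lower, median -0.42, and none passed with all arrays. H2-Oa, which regulates class II loading, fell by 1.06 without the 4 arrays (-0.71 with all, limma adjusted p = 0.269). It was detected on 3 of 6 SIRT1Tg arrays. Ciita, the regulator of class II genes, differed by -0.86 (limma adjusted p = 0.187) and Cd74, the invariant chain, by -0.57 (limma adjusted p = 0.433), while B2m read 13.68 ± 0.05 and 13.67 ± 0.06. Of 40 cytokines and chemokines none passed with all arrays and 3 fell without the 4 (0.407% of all features), with medians of -0.16 and -0.22. Saa3, an acute phase protein made in fat, spread from 7.18 to 10.70 in WT and 5.41 to 8.97 in SIRT1Tg (-1.94 ± 0.50, limma adjusted p = 0.164).

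**Figure D3:**
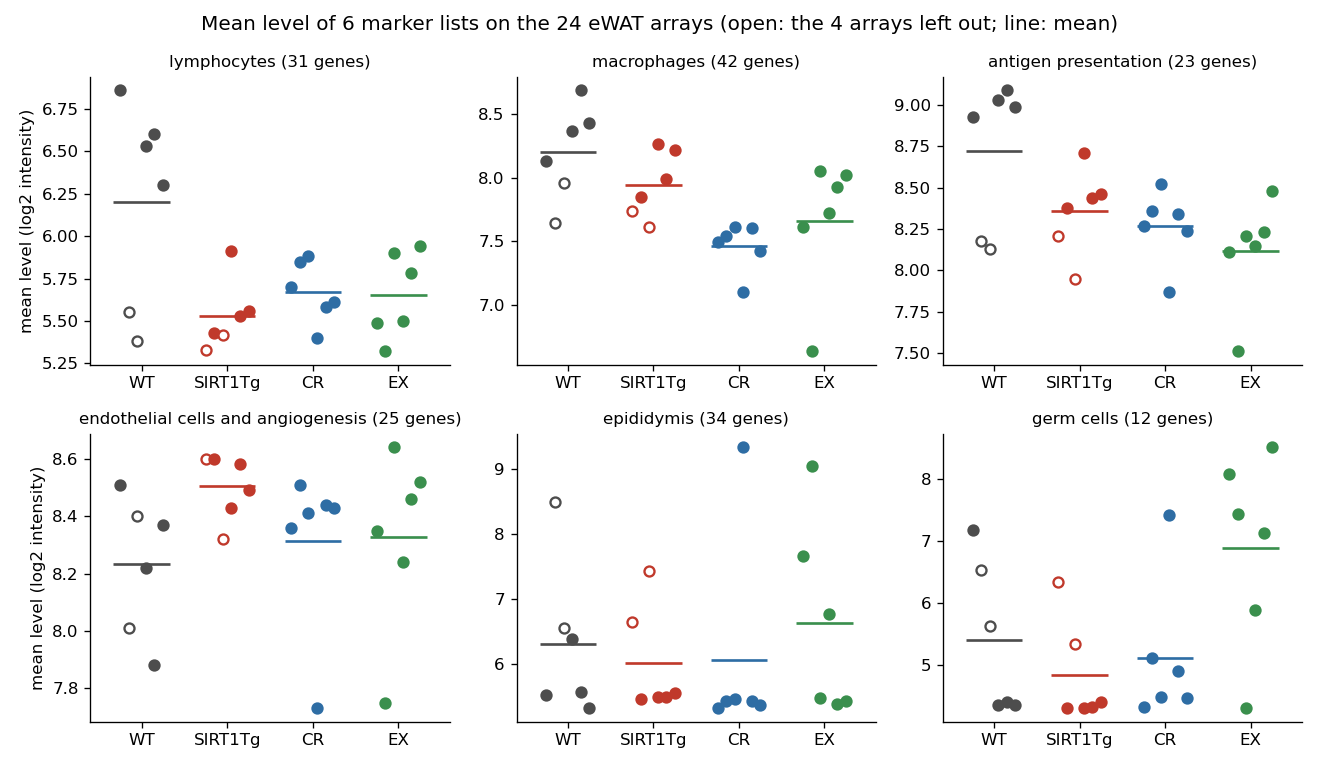
Mean level (log2 intensity, y axis) of 6 marker lists on the 24 eWAT arrays by condition; each point is an array, open points are the 4 arrays left out and lines the means. The lymphocyte list is at 6.30 or above on the 4 filled WT points and at 5.94 or below on all others; the epididymis list is high on single arrays of every condition.

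Epididymis and germ cell RNA varied between single arrays. The epididymis list, 34 genes, ran from 5.31 to 8.49 in WT and 5.46 to 7.42 in SIRT1Tg, and the germ cell list, 12 genes, from 4.34 to 7.18 and 4.29 to 6.33. The 2 WT arrays lowest in lymphocyte genes, WAT_1960_WT and WAT_1961_WT, were those highest in epididymis genes, at 8.49 and 6.55. WAT_2226_WT came close to the latter in epididymis genes, at 6.38, yet its lymphocyte level was 6.53. In SIRT1Tg the lymphocyte level was 5.33 on WAT_1953_SiRT1 and 5.42 on WAT_1955_SiRT1, against 5.43 to 5.91 on the arrays without Adam7. WAT_1959_WT was high in lymphocyte and germ cell genes, at 6.86 and 7.18, and low in epididymis genes at 5.52. Without WAT_1959_WT and WAT_2226_WT too, 26 features passed (0.221%), 1 higher (0.00848%) and 25 lower (0.212%), among them Cd8b1 (-2.75), Cd6 (-1.60), Lat2, Cd180, Sirpb1a and Havcr2. Of the 53, 15 were called there, and Cx3cr1 and Trib2 were not (limma adjusted p = 0.142 and 0.172). There the CD3 genes were at -1.88, -1.47 and -1.63 for Cd3d, Cd3e and Cd3g (limma adjusted p = 0.067, 0.0686 and 0.067), Ccr6 at -1.03 and Ccl5 at -1.97 (limma adjusted p = 0.569 and 0.21). The part of epididymis RNA in the remaining differences was not tested.

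Of 35 genes of adipocyte identity and lipid storage, 0 passed in either fit. Over all features 0.0594% passed with all arrays and 0.449% without the 4, so 0 is near that share. With all arrays 18 of the 35 were higher and 17 lower, and the median log2 difference was 0.01. Leaving out the 4 arrays, 12 were lower and the median was 0.12. Lpl, which releases fatty acids from lipoproteins, read 13.98 ± 0.10 in WT and 14.00 ± 0.14 in SIRT1Tg. Pparg, the master regulator of fat cells and a SIRT1 target, read 10.61 ± 0.35 and 10.90 ± 0.42. Pnpla2, the first lipase of fat breakdown, differed by -0.04 ± 0.18, and the lipolysis list of 15 genes had a median of -0.01 (0.19 without the 4 arrays). Scd1, the stearoyl desaturase, differed by 0.02 ± 0.09. Under median scaling the median of all features was -0.09 and that of the adipocyte list -0.09.

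No list of mitochondrial genes had a called member, where 0.0594% of all features passed with all arrays and 0.449% without the 4. The 67 oxidative phosphorylation genes had a median of 0.02, 28 fatty acid oxidation genes -0.07, 18 citric acid cycle genes -0.05 and 68 mitochondrial ribosomal proteins -0.01. These medians were 0.04, -0.04, 0.02 and -0.01 without the 4 arrays. Atp5b, the β subunit of ATP synthase, read 13.77 ± 0.10 and 13.63 ± 0.10. Of 16 thermogenic genes none passed with the eWAT fits. Cox8b, a cytochrome oxidase subunit enriched in brown fat, read 7.96 to 10.47 in WT and 6.67 to 8.84 in SIRT1Tg (-1.03 ± 0.28, limma adjusted p = 0.196), and it was called in the fit over 4 tissues with slide as a fixed term (-1.22, limma adjusted p = 0.00729). Ucp1 was detected on 4 of the 12 arrays and was not fitted. Among 15 genes of NAD synthesis and consumption, Nampt, the enzyme of the salvage route, read 6.30 ± 0.43 and 6.96 ± 0.22 (limma adjusted p = 0.487). The 23 regulators known to be deacetylated by SIRT1 had a median of -0.04.

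**Figure D4:**
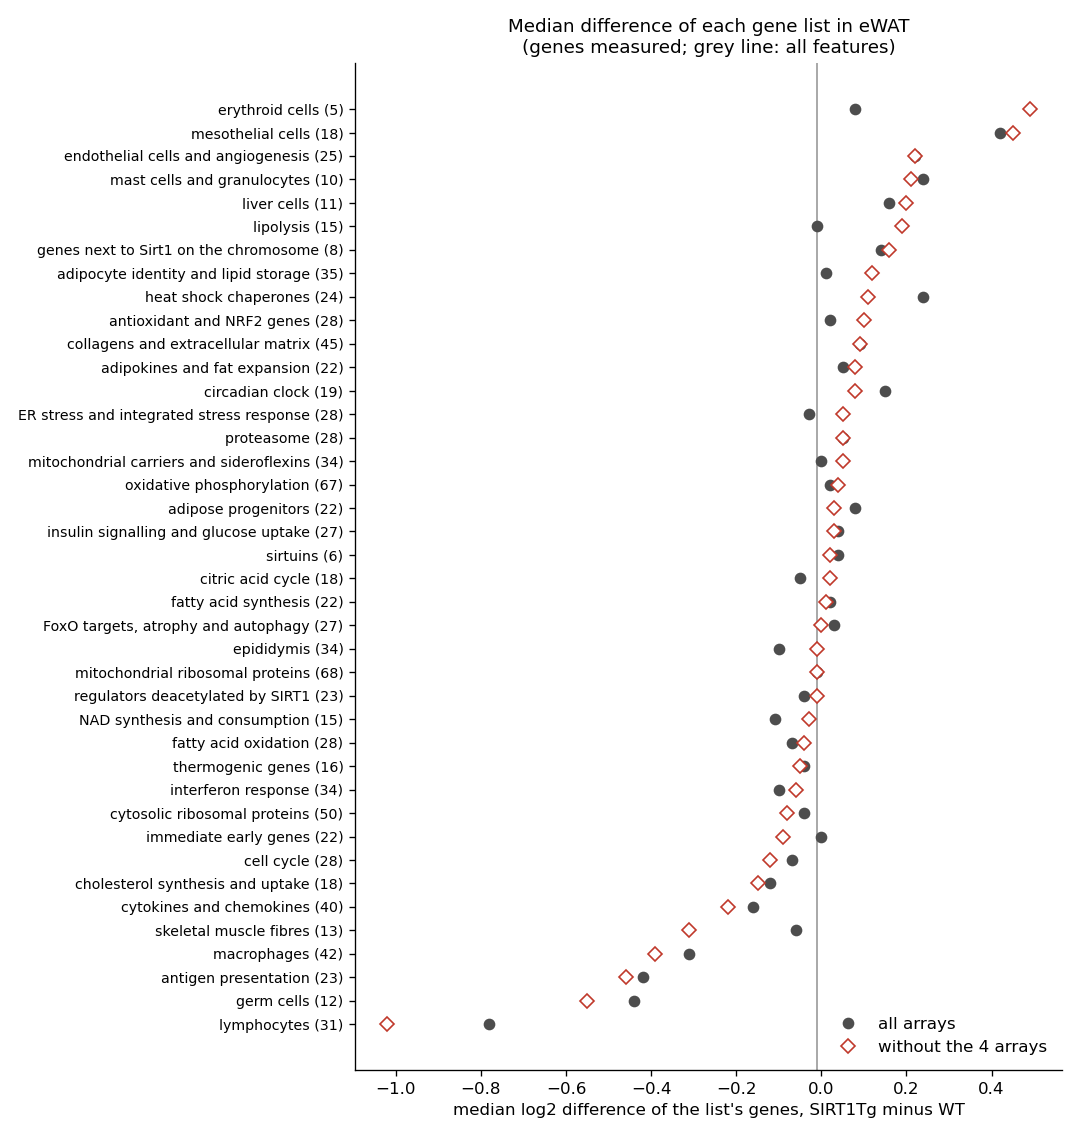
Median log2 difference (x axis, SIRT1Tg minus WT) over the measured genes of 40 lists with 5 or more measured genes, with all arrays (grey circles) and without the 4 arrays (red diamonds); the grey line is the median of all features. Lymphocytes, at -0.78 and -1.02, lie farthest below. Mesothelial cells are at 0.42 and 0.45, and erythroid cells, 5 genes, at 0.08 and 0.49.

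Without the 4 arrays 5 features rose (0.0424%): Sirt1, Trib2, Depp1, Rapgef3 and a probe without a gene name. Other fits called more rises: 98 against 199 falls with array weights, 59 against 122 in the joint fit of the 4 tissues, and 39 against 85 over 8 arrays alone. Depp1, a FoxO target, read 8.63 to 10.73 in WT with a median of 9.34 and 9.91 to 11.10 in SIRT1Tg with a median of 9.99. Its groups overlapped at WAT_1959_WT and WAT_1961_WT, and it rose by 1.21 ± 0.23 without the 4 arrays (limma adjusted p = 0.0176) against 0.73 with all (limma adjusted p = 0.367). Rapgef3, the cAMP sensor EPAC1, rose by 0.84 ± 0.17 without them (limma adjusted p = 0.0314) against 0.63 with all (limma adjusted p = 0.156). Within series A the differences were 0.14 and 0.28, and within series B 1.33 and 0.99. Over all features 5610 of 11791 were higher with all arrays, with a median of -0.01, and 0.017% rose. Of 24 heat shock chaperones 20 were higher with a median of 0.24 (0.11 without the 4 arrays), and none passed. Of 25 endothelial genes 21 were higher with a median of 0.22 and none passed. Esam, a junction protein of endothelium, read 10.54 ± 0.30 and 11.05 ± 0.21 (limma adjusted p = 0.216), and Sox17, a transcription factor of arteries, 6.86 ± 0.38 and 7.45 ± 0.29 (limma adjusted p = 0.235). Of 18 mesothelial genes 15 were higher with a median of 0.42, and Msln, mesothelin, spread from 4.64 to 7.19 in WT and 5.67 to 7.43 in SIRT1Tg. Mesothelial levels varied widely between arrays, from 5.30 to 7.33 in WT, lowest on WAT_2232_WT. Metrnl, an adipokine, was lower on every SIRT1Tg array, at 5.26 to 5.98 against 6.04 to 7.09, as were 36 features (0.305%). It did not pass (-0.71, limma adjusted p = 0.144).

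The effect in eWAT was tested against that in the other tissues over the 48 SIRT1Tg and WT arrays. Against liver 6 features differed (0.0509%), against BAT 1 and against muscle 1 (0.00848% each). Sirt1 rose by 2.80 ± 0.26 (SE) in eWAT in this fit, and its estimates were 1.37 in BAT, 0.83 in liver and 1.76 in muscle. The difference from liver was 1.97 ± 0.36 (limma adjusted p = 0.00901), and those from BAT, 1.43 ± 0.36 (limma adjusted p = 0.38), and muscle, 1.04 ± 0.36 (limma adjusted p = 0.725), did not pass. Without liver_1953_SiRT1, which detected 5841 probes against 10215 to 14940 on the other 47 arrays, the Sirt1 difference passed against all 3 tissues (limma adjusted p = 6.04e-08, 1.12e-07 and 0.000356 for BAT, liver and muscle).

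None of the other genes that differed between tissues was called in eWAT. Sfxn1, the mitochondrial serine transporter, was at -0.14 in eWAT and -2.80 in BAT (difference 2.66 ± 0.25, limma adjusted p = 3.09e-09). Cxcl1, a neutrophil chemokine, was at 0.03 in eWAT and -1.90 in liver, where Apol9b, Oasl1 and Cenpm also lay below their eWAT estimates. Pex11a, a peroxisome division factor, was at -0.53 in eWAT and 0.38 in liver, and Arrdc2 at 0.15 in eWAT and 1.39 in muscle. Cd8b1 was at -1.89 in eWAT, -0.41 in BAT, -0.71 in liver and -0.04 in muscle. None of its differences passed with all arrays. Without the 4 arrays, those from BAT (-2.07, limma adjusted p = 0.0475) and muscle (-2.44, limma adjusted p = 0.0123) did, and that from liver (-1.77, limma adjusted p = 0.105) did not.

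**Figure D5:**
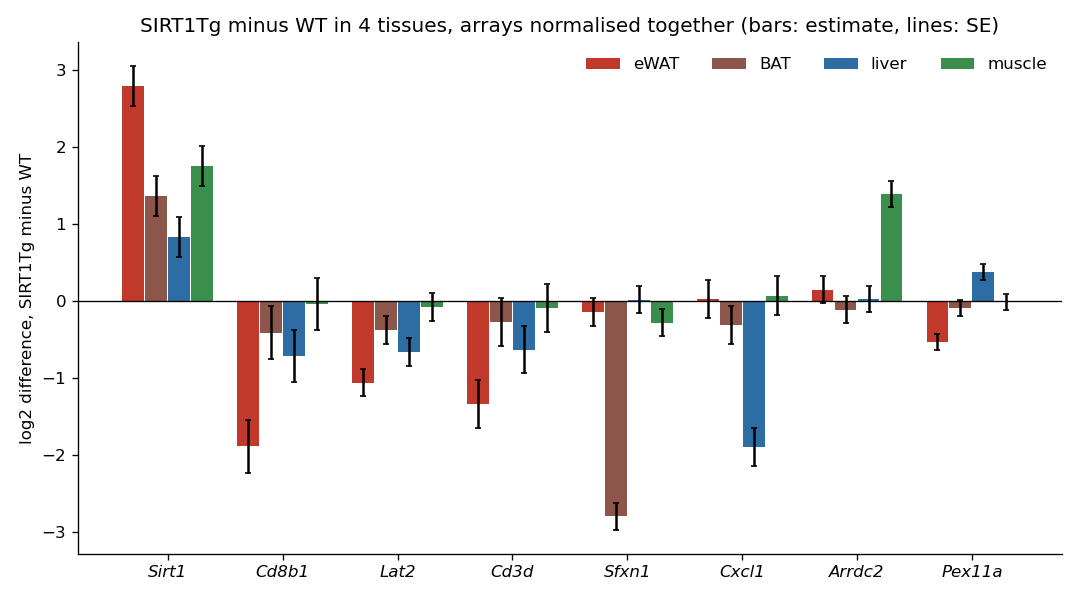
Log2 difference SIRT1Tg minus WT (y axis) of 8 genes in eWAT, BAT, liver and muscle from the fit over 48 arrays; bars are estimates and lines the SE. Sirt1 is above 0 in each tissue and highest in eWAT at 2.80, and Sfxn1 is lowest in BAT at -2.80. Cd8b1, Lat2 and Cd3d are lowest in eWAT, but none of their differences between tissues passed with all arrays. In liver Lat2 is at -0.66 and Cd3d at -0.63.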

How the data were processed

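RNA of 96 mouse tissue samples was measured on Illumina bead arrays. The deposited table gives the intensity of 25697 probes, not normalised between arrays and with no detection p-values. GenomeStudio and Partek are named in the submitters' processing notes, with no version or role. The columns of the deposited series matrix share the same quantiles over all arrays and lie in the range of log2 intensities; these values served as an alternative.

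In R 4.3.3 with limma 3.58.1, each array's background was set at the peak of the density of its log2 intensities (bandwidth 0.03), and normexp (offset 16) and then quantile normalisation of the 24 eWAT arrays followed. A probe counted as detected beyond the upper 0.05 tail of that background. Detection on at least 6 of the 24 arrays kept 15706 probes, and the probe of highest mean stood for its gene, giving 11791 features. Gene symbols came from RefSeq's table of GRCm38.p6, which matched 23962 probes through the platform annotation's gene ID; 16 carry the platform's symbol and 1719 are unnamed. All 9 further probes of the named genes that were called had the sign of the probe used.

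limma (lmFit and eBayes) was fitted with condition and number series as terms, and p-values were adjusted (Benjamini-Hochberg) over all features. Differences between tissues were interaction contrasts over 48 arrays normalised together. The procedure was tested on simulated data with independent normal errors and no added slide effects or epididymis RNA. That simulation thus cannot speak to those limits. Figures used matplotlib 3.10.9. The number of arrays limits the precision.

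Names were given to Sirt1, to up to 15 rises and 15 falls of largest size past the threshold that keep their sign without the 4 arrays, and in each of 41 gene lists to up to 4 called members, or up to 2 of the highest level where none was called. All other genes, cell markers apart, were chosen after their values were seen. The comparison, the lists and the rule were chosen with earlier results of these data known. Alternatives varied background, scaling, the matrix values, detection filters, covariates, slide, array weights and the arrays used; those that leave out WAT_1959_WT and WAT_2226_WT, use 8 arrays alone or leave out liver_1953_SiRT1 were added after seeing the data. Tissues of an animal share its number, so the animal was tried as a replicate block (correlation 0.0371).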

Additional observations from a re-analysis of the deposited data

Results flagged for a closer look

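Chance makes about 1 in 20 sets of values hold an array this far from its group, and 118 sets of 6 values were checked. In SIRT1Tg, 1 array lay far from its group for Cd8b1 (6.78 on WAT_2207_SiRT1, the next at 5.69), Dnajc12 (7.53 on WAT_1955_SiRT1, the next at 6.30), Gpnmb, a macrophage glycoprotein (8.72 on WAT_2207_SiRT1, below the next at 9.32), and Havcr2 (4.57 on WAT_1955_SiRT1, the next at 4.34). The mean level of the mesothelial list was low on WAT_1954_SiRT1 (6.13, the next at 7.03). That of the skeletal muscle list was high on WAT_1955_SiRT1 (7.09) and on WAT_2226_WT (7.03).

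The SIRT1Tg effect differed between eWAT and another tissue for 8 genes at a limma adjusted p under 0.05. The eWAT estimate exceeded that in BAT by 2.66 for Sfxn1 and that in liver by 1.97 for Sirt1, 1.93 for Cxcl1, 1.03 for Oasl1, 0.89 for Apol9b and 0.52 for Cenpm. It lay below that in liver for Pex11a (-0.91) and below that in muscle for Arrdc2 (-1.25).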

How the results depend on the processing

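Sirt1 rose in every fit, by 2 to 2.81, and missed the threshold only within series A (2.59, limma adjusted p = 0.0733). None of the 7 called genes changed sign in any fit. Against 7 called features, the count was 11 without background correction, 32 with median scaling, 4 with the matrix values, 1 over the 12 SIRT1Tg and WT arrays alone, 3 without the series term, 141 with the epididymis level as a term, 53 without the 4 arrays, 0 within series A (321 at unadjusted p under 0.05), 3 within series B, 3 with slide as a random block, 297 with array weights (98 higher), 181 in the joint fit of the 4 tissues (59 higher) and 17 with slide fixed in it, 26 without WAT_1959_WT and WAT_2226_WT too, and 124 over 8 arrays alone (39 higher). Leaving out 1 array at a time gave 1 to 24 calls, 1 without WAT_2222_SiRT1 or WAT_2228_WT and 24 without WAT_1961_WT. Differences of Sirpb1a (-1.27 to -0.18), Cx3cr1 (-1.13 to -0.16) and Cd180 (-1.07 to -0.12) were smallest without background correction or in the matrix values; Cd8b1 ran from -2.75 to -0.93. The cause of the other changes was not tested.

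Between tissues, the animal as a replicate block gave 1, 13 and 1 calls against BAT, liver and muscle, against 1, 6 and 1 without it. Without background correction BAT had 2 and liver 29. Without the 4 arrays there were 35, 33 and 59, and without liver_1953_SiRT1 there were 4, 13 and 2.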
